A study of Mus musculus with 9 samples.

Results

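The genes of the interleukin-4 (IL-4) receptor and its JAK-STAT6 signalling arm were followed in the lungs of mice that made IL-4, or a shorter splice variant of it, from an adenovirus. The set held 10 genes, namely the cytokine Il4, the receptor chains Il4ra, Il13ra1, Il13ra2 and Il2rg, the kinases Jak1, Jak3 and Tyk2, the transcription factor Stat6 and the adaptor Irs2. Its members were the probe sets of the expression array to which the platform annotation gives 1 of these symbols and no other, which came to 19 of 45101 probe sets and covered 9 of the 10 genes. No probe set in that annotation carried Il2rg alone, so the common gamma chain was not analysed here, and 2 probe sets that list Jak3 together with Insl3 were left out.

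Lung RNA of 9 female C57BL/6 mice aged 14 weeks was hybridised to 1 array per mouse. In each mouse a replication-deficient adenovirus had been given into the trachea 14 days earlier, so all 3 groups carry a viral infection. The virus of the IL-4 group (AdV-IL4, 3 mice) encodes mouse IL-4, that of the IL-4d2 group (AdV-IL4d2, 3 mice) encodes mouse IL-4d2, and that of the control group (AdV-NULL, 3 mice) encodes no cytokine. The promoter in the vectors, the cells they entered and the amount of protein made are not given in the sources used here. Whole lung was measured, so a lower signal from fewer cells of a type and one from less RNA per cell cannot be told apart.

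IL-4 binds the receptor chain IL-4Rα, which then pairs with the common gamma chain on blood cells or with IL-13Rα1 on epithelium, smooth muscle and macrophages. The kinases JAK1, JAK3 and TYK2 that sit on these chains phosphorylate the receptor, STAT6 docks there, is phosphorylated in turn, and enters the nucleus as a dimer to switch on its targets, while IRS2 docks at another site and leads to PI3 kinase. In the mouse lung this route is known for alternatively activated macrophages, mucus-producing epithelium and the chemokines of allergic inflammation. STAT6 is activated by phosphorylation, which an RNA array does not measure.

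Values are MAS5 signals, linear intensities in arbitrary units that the authors scaled so that every array has the same 2% trimmed mean of 500.002. The array medians lay between 156 and 171. A probe set was tested where its signal lay above the median of its own array on at least 3 of the 9 arrays, which held for 23824 probe sets in all and for 16 of the 19 pathway probe sets. Differences are on the log2(signal + 16) scale with the standard error of the fit, from limma, and a difference is said to pass the test, or to be called, where its p-value adjusted over all 23824 probe sets by the Benjamini-Hochberg method was under 0.05. Both comparisons against the control virus use the same 3 control arrays. Since a probe set's brightness depends on its own probes, levels are compared between groups and never between probe sets.

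The defining lung markers Sftpc, Sftpb, Scgb1a1, Ager and Cldn18 were bright on all arrays, and 0 of the 5 were called in any of the 3 comparisons by limma. Other cell contents differed between arrays. Summed B cell marker signals ran from 3582 to 4107 in the IL-4 mice and from 3419 to 4064 in the IL-4d2 mice, against 2031 to 2665 in control mice, and summed T cell marker signals from 1346 to 1606 and from 1566 to 1738, against 1015 to 1262. Skeletal muscle markers summed to 466 to 1259 in the IL-4 mice, 818 to 3013 in the IL-4d2 mice and 1867 to 57235 in control mice, the last value being that of control mouse 1, and 4 of the 5 tested were called with IL-4. Heart muscle markers summed to 1605 to 7778, 6653 to 22047 and 16141 to 30787 in that order of groups, and 5 of the 6 were called with IL-4. Fibroblast markers summed to 34514 to 38960, 33586 to 34950 and 26704 to 31948, and 3 of the 5 were called with IL-4. The mean log2 signal of the fibroblast markers went the other way, at 11.63 to 11.87 in the IL-4 mice and 11.94 to 12.01 in control mice. The ratio of the 3′ to the 5′ Gapdh control probe set, a sign of RNA integrity, was 1.54 to 1.80, 1.35 to 1.57 and 0.955 to 1.45 in the same order of groups. That of Actb was 2.79 to 3.75, 2.34 to 2.79 and 2.28 to 2.88. Both ratios had their highest group mean in the IL-4 mice, and the Gapdh ranges of IL-4 and control mice did not overlap. The part of RNA integrity in the differences below was not tested.

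Apart from the Il4 transcript that the viruses encode, 0 of the 15 other tested pathway probe sets passed the limma test in any of the 3 comparisons. Of 21 tested genes listed here as STAT6 targets, 14 rose with IL-4 (5.6% of all tested probe sets did) and 12 were higher with IL-4 than with IL-4d2 (0.911% of all), counts that were as low as 9 and 6 with 1 array left out and that come from a list written with earlier results of these arrays known. In the IL-4 lungs 1 of the 16 probe sets was called, Il4 itself, where 10.7% of all tested probe sets were called. In the IL-4d2 lungs it was again Il4 alone, where 1.32% of all tested probe sets were called. Il4 was tested through the cytokine virus arrays alone, so its calls against control are no support for a difference. Between IL-4 and IL-4d2 lungs 0 of 16 were called, against 1.75% of all tested probe sets. Leaving Il4 out, 2, 2 and 1 of the other 15 had an unadjusted p under 0.05 in these 3 comparisons, where 25.9%, 14.4% and 16.4% of all probe sets did.

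**Figure D1:**
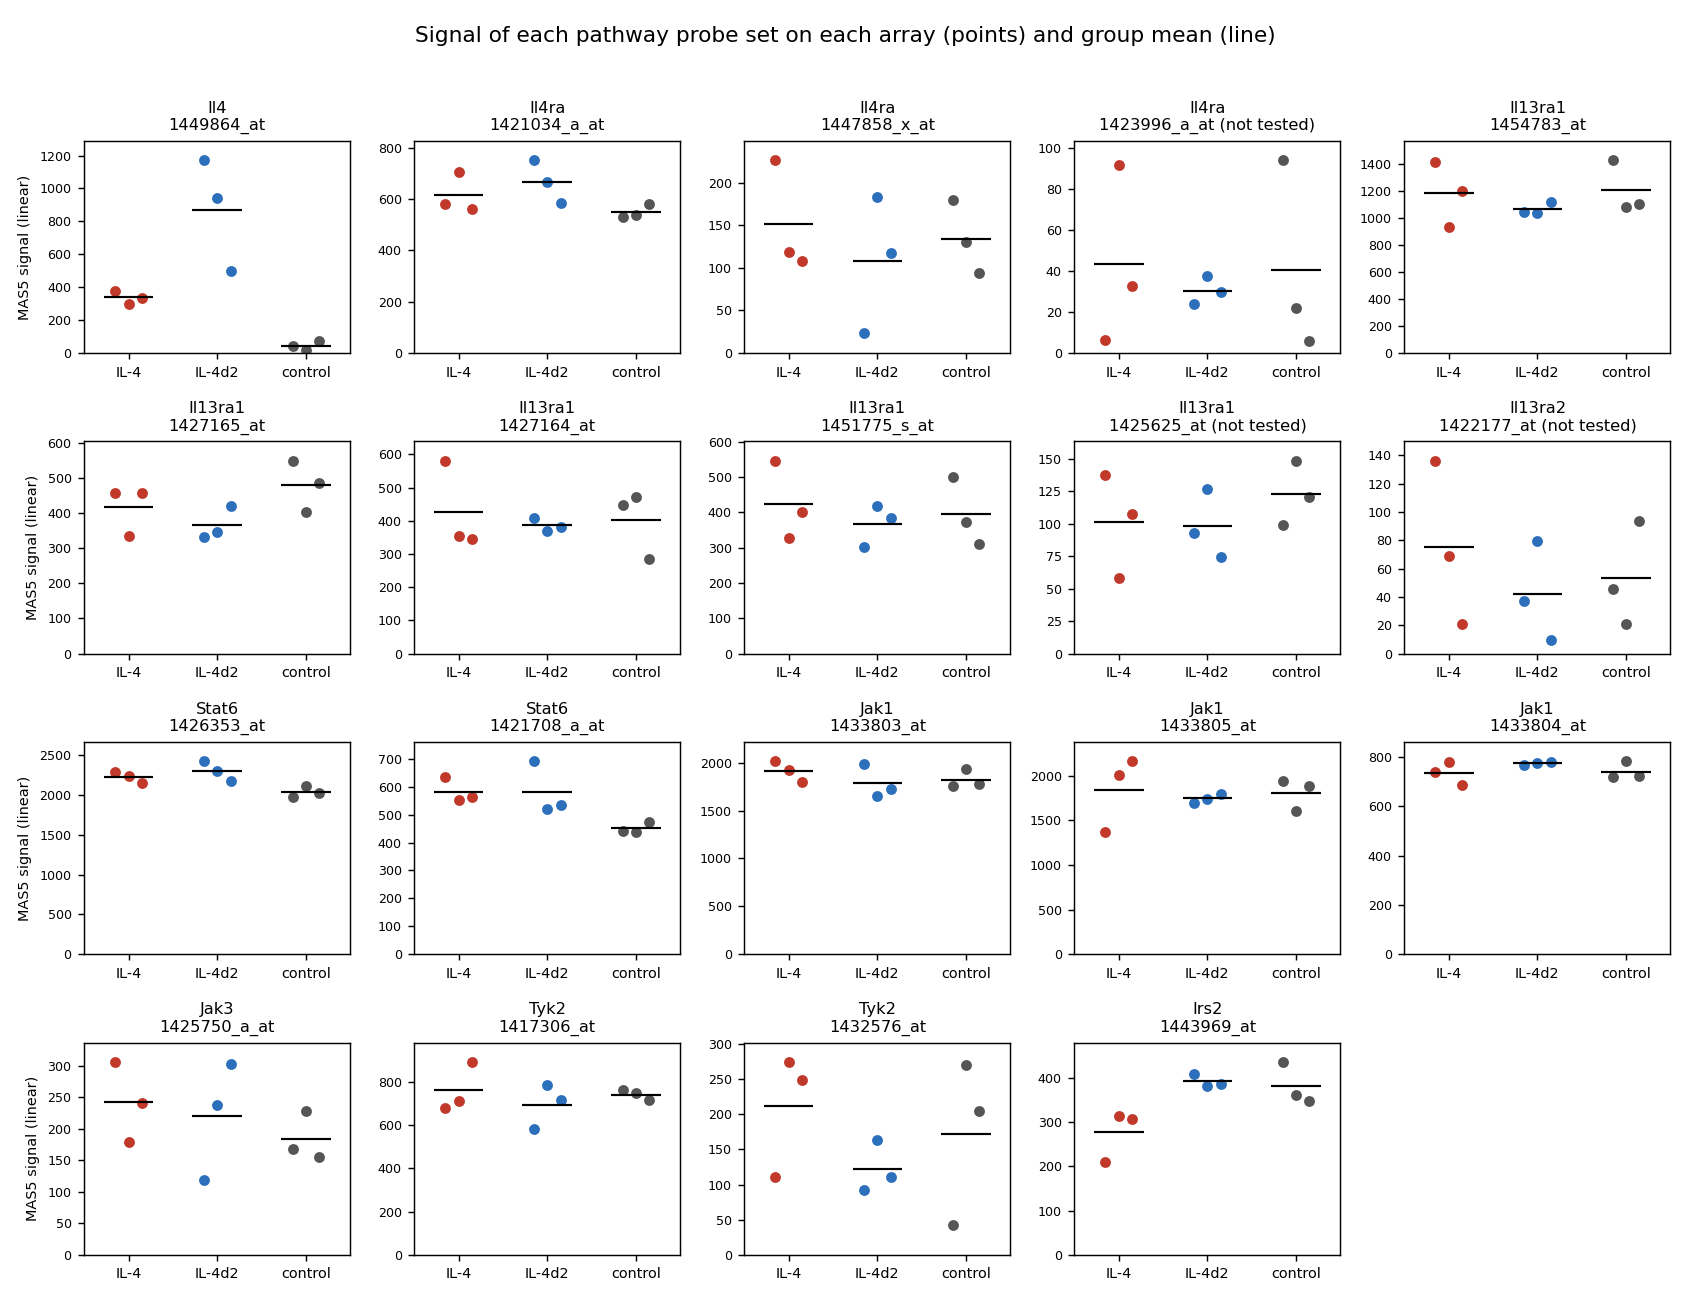
MAS5 signal (linear, vertical axes from 0) of each of the 19 pathway probe sets on each array, with points for the 3 mice of the IL-4, IL-4d2 and control virus groups and a line for the group mean. Il4 separates the 3 groups, both Stat6 probe sets have their 6 cytokine virus points above the 3 control points, and Irs2 has its 3 IL-4 points below the other 6.

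Il4 is the cytokine gene itself and lies on chromosome 11 (GRCm38.p6, 53612460 to 53618665). Its probe set 1449864_at had signals of 379, 301 and 335 in the IL-4 mice. The IL-4d2 mice had 1172, 944 and 499, and the control mice 43.1, 15.8 and 71.6. The 3 groups did not overlap, with IL-4d2 highest and control lowest, and the control signals stayed below the array median on all 3 arrays, so that Il4 entered the test through the mice given a cytokine virus alone.

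Against the control virus, Il4 was 6.43-fold higher with IL-4 (2.69 ± 0.35 on the log2 scale, limma adjusted p = 0.000836) and 15.3-fold higher with IL-4d2 (3.93 ± 0.35, limma adjusted p = 7.69e-05). Since Il4 entered the test through the cytokine virus arrays alone, both adjusted p-values are no support for a difference from control. The control signals are near those of trpn, a bacterial transcript that serves as a negative control and reached 55.8 on the control arrays. Taking on each control array the brighter of Il4 and trpn as the floor, the fold for Il4 was at least 4.91-fold in IL-4 mice over control mice. For IL-4d2 mice it was at least 11.7-fold. Viral and mouse Il4 transcripts are not told apart by this signal, and the sources used here do not give where the probes lie relative to the part that the splice variant lacks.

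Between the viruses, Il4 was lower with IL-4 than with IL-4d2 by a log2 difference of -1.25 ± 0.35 (95% interval -2.02 to -0.48). That difference missed the threshold (limma adjusted p = 0.104), although no IL-4 mouse reached any IL-4d2 mouse. It passed the test when control mouse 2 was left out (adjusted p = 0.0484), in a fit of these 2 groups alone (0.0429) and with a pseudocount of 64 (0.0479). Il4 varied more between mice than most transcripts, with a within-group SD of 0.57 on the log2 scale against a median of 0.18 over all tested probe sets.

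Il4ra encodes IL-4Rα, the chain that every IL-4 and IL-13 signal of this route needs, and lies on chromosome 7 (125552271 to 125579474). Its brightest probe set, 1421034_a_at, gave 579, 706 and 559 in IL-4 mice. IL-4d2 mice had 751, 667 and 583, and control mice 532, 536 and 579. The 3 IL-4d2 values all lay above the control values by a small margin, whereas 1 IL-4 value lay within the control range. The log2 differences were 0.15 ± 0.13 with IL-4 (limma adjusted p = 0.488) and 0.27 ± 0.13 with IL-4d2 (adjusted p = 0.363), neither of which passed the test, and their 95% intervals ran from -0.12 to 0.43 and from -0.01 to 0.54.

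Of the other Il4ra probe sets, 1447858_x_at had 227, 119 and 108 in the IL-4 mice, 23.4, 183 and 118 in the IL-4d2 mice and 179, 130 and 94.0 in control mice, with its groups overlapping and a within-group SD of 0.80. Its 95% intervals were wide, reaching up to 1.25 with IL-4 and running from -1.65 to 0.60 with IL-4d2. Probe set 1423996_a_at stayed below the array median on all 9 arrays and was not tested.

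Il13ra1 encodes the chain that pairs with IL-4Rα on epithelium, smooth muscle and macrophages, and lies on the X chromosome (36112108 to 36171262). Its probe set 1454783_at had 1417, 937 and 1197 in the IL-4 mice, 1044, 1038 and 1117 in the IL-4d2 mice and 1430, 1085 and 1103 in control mice. All 3 ranges overlap, and the log2 differences were -0.03 ± 0.15 with IL-4 and -0.16 ± 0.15 with IL-4d2 (limma adjusted p = 0.913 and 0.671). Of the 4 tested Il13ra1 probe sets, 0 were called by limma in any comparison, with differences from -0.20 to 0.10 with IL-4 and from -0.37 to -0.02 with IL-4d2.

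Il13ra1 probe set 1427165_at had the lowest of these. It read 457, 335 and 456 in the IL-4 mice, 332, 347 and 420 in the IL-4d2 mice and 549, 402 and 486 in control mice. With IL-4d2 its difference of -0.37 ± 0.16 had an unadjusted p of 0.0418 and an adjusted p of 0.322, and the groups overlapped. The probe set 1425625_at of Il13ra1 stayed below the array median throughout, at 58.4 to 137 in the IL-4 mice, 74.4 to 127 in the IL-4d2 mice and 98.8 to 149 in control mice, and was not tested.

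Il13ra2, also on the X chromosome (147383478 to 147429192), encodes a receptor that binds IL-13 tightly, is known as a decoy, and is itself induced by IL-4 and IL-13 in some cells. Its probe set 1422177_at gave 136, 68.8 and 20.8 in the IL-4 mice, 37.4, 79.8 and 9.33 in the IL-4d2 mice and 45.5, 21.0 and 93.9 in control mice. None of the 9 signals reached its array's median and the groups overlapped, so no difference was detectable with this probe set. Without the filter its log2 difference with IL-4 was 0.31 ± 0.62 (limma adjusted p = 0.865).

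Among the kinases, Jak1, which is bound to IL-4Rα and lies on chromosome 4 (101151974 to 101265282), had 3 tested probe sets. Its probe set 1433803_at read 2014, 1928 and 1800 in the IL-4 mice, 1983, 1656 and 1727 in the IL-4d2 mice and 1759, 1935 and 1778 in control mice. Its probe set 1433804_at read 739, 779 and 686 in the IL-4 mice, 768, 778 and 780 in the IL-4d2 mice and 719, 782 and 722 in control mice. Its probe set 1433805_at varied more, reading 1368, 2004 and 2159 in the IL-4 mice, 1698, 1740 and 1793 in the IL-4d2 mice and 1934, 1603 and 1882 in control mice. The groups overlapped on all 3 in every comparison. Over its 3 probe sets the log2 differences against control virus ran from -0.01 to 0.07 with IL-4 and from -0.05 to 0.06 with IL-4d2, and 0 of the 3 passed the limma test (lowest unadjusted p 0.480 and 0.508). The widest of these intervals, that of 1433805_at, ran from -0.31 to 0.33 with IL-4 and from -0.36 to 0.27 with IL-4d2.

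Jak3, the kinase of the common gamma chain, lies on chromosome 8 (71676383 to 71690577). Its 1 probe set with no other gene, 1425750_a_at, read 306, 179 and 241 in the IL-4 mice, 119, 238 and 303 in the IL-4d2 mice and 168, 227 and 154 in control mice. The groups overlapped, and its differences of 0.36 ± 0.30 with IL-4 and 0.17 ± 0.30 with IL-4d2 did not pass the test (limma adjusted p = 0.496 and 0.851). Its within-group SD was 0.45.

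Tyk2, the kinase of IL-13Rα1, lies on chromosome 9 (21104068 to 21131393). Its brighter probe set 1417306_at read 680, 708 and 891 in the IL-4 mice, 579, 786 and 717 in the IL-4d2 mice and 762, 746 and 713 in control mice. The ranges overlapped, and the log2 differences were 0.03 ± 0.13 with IL-4 and -0.10 ± 0.13 with IL-4d2 (limma adjusted p = 0.925 and 0.790). Its dimmer probe set 1432576_at, with signals between 42.4 and 275, had the largest within-group SD of the pathway, 0.83.

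Stat6, the transcription factor that carries the signal to the nucleus, lies on chromosome 10 (127642955 to 127660987). Its probe set 1426353_at read 2287, 2230 and 2146 in the IL-4 mice, 2419, 2294 and 2173 in the IL-4d2 mice and 1971, 2109 and 2027 in control mice. Its second probe set 1421708_a_at read 634, 551 and 563 in the IL-4 mice, 691, 521 and 535 in the IL-4d2 mice and 440, 437 and 475 in control mice. On both, all 6 mice given a cytokine virus lay above all 3 control mice, a pattern that 5.53% of all tested probe sets showed.

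Stat6 did not pass the test. For 1421708_a_at they were 0.36 ± 0.13 with IL-4 and 0.35 ± 0.13 with IL-4d2, or 1.28-fold and 1.27-fold, with unadjusted p of 0.0156 and 0.0179 and limma adjusted p of 0.0959 and 0.227. For 1426353_at they were 0.12 ± 0.08 and 0.17 ± 0.08 (adjusted p = 0.354 and 0.357). Between the viruses Stat6 differed by 0.01 ± 0.13 and -0.05 ± 0.08 on these probe sets, with 95% intervals of -0.27 to 0.29 and -0.22 to 0.13. Summed B cell, T cell and fibroblast marker signals were also higher on all 6 cytokine virus arrays than on the 3 control arrays. The mean log2 signal of the fibroblast markers, unlike their sum, was lower in the IL-4 mice than in control mice. The part of these cell types in the Stat6 signal was not tested.

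Irs2, the adaptor that links the IL-4 receptor and the insulin receptor to PI3 kinase, lies on chromosome 8 (10984681 to 11008929). Its probe set 1443969_at read 209, 314 and 307 in the IL-4 mice, 408, 382 and 387 in the IL-4d2 mice and 436, 361 and 348 in control mice. Each of the 3 IL-4 values was below each value of the other groups, while IL-4d2 and control overlapped. The log2 difference was -0.46 ± 0.17 with IL-4 against control (95% interval -0.82 to -0.10, limma adjusted p = 0.1002) and -0.50 ± 0.17 with IL-4 against IL-4d2 (adjusted p = 0.155), neither of which passed the test. With IL-4d2 against control it was 0.04 ± 0.17.

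**Figure D2:**
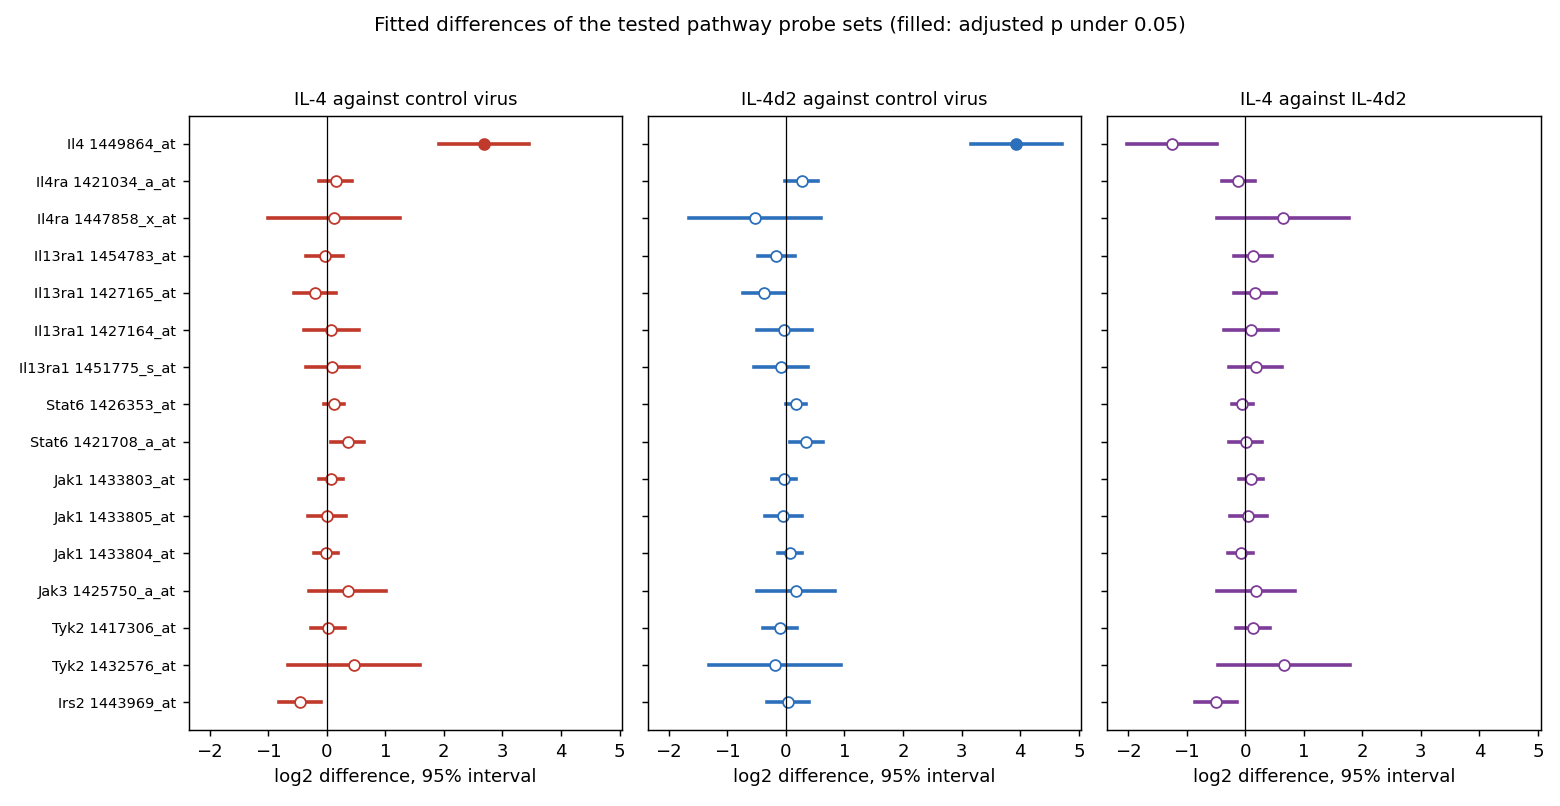
Log2 differences (points) with 95% intervals (lines) of the 16 tested pathway probe sets for each cytokine virus against the control virus and for IL-4 against IL-4d2, filled where the limma adjusted p was under 0.05. Only Il4 in the first 2 panels is filled, and the intervals are narrow for Stat6 and Jak1 and wide for Il4ra 1447858_x_at and Tyk2 1432576_at.

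The groups of some members did not overlap. With Il4 included, 4 of 16 probe sets had IL-4 and control groups that did not overlap (25.0%, against 29.2% of all tested), 4 of 16 had IL-4d2 and control groups that did not (25.0%, against 21.3%), and 2 of 16 had IL-4 and IL-4d2 groups that did not (12.5%, against 22%). Without Il4 these counts were 3, 3 and 1 of 15 (20%, 20% and 6.67%). For the 15 probe sets other than Il4 the median log2 difference was 0.08 with IL-4, -0.03 with IL-4d2 and 0.10 between the viruses, where all tested probe sets had medians of -0.00355, -0.00345 and -0.00291. Of those 15, 12, 13 and 13 had a 95% interval lying wholly within 1 log2 unit of 0, so a 2-fold change lies outside these intervals, and it lies inside for the rest, which are the dimmer probe sets. Leaving out any 1 array gave 0 calls among these 15 in any comparison.

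All these differences are relative to the scale that the authors set. Scaling instead to the hybridisation controls moved the median of all tested probe sets by -0.43 with IL-4 against control, by 0.05 with IL-4d2 against control and by -0.49 between the viruses, and scaling to the poly-A controls spiked into the RNA moved it by -0.76, 0.26 and -1.03. Relative to those shifts, the 16 pathway probe sets moved by at most 0.13 from the values given here.

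As a description, the transcripts whose log2 signal followed each pathway member most closely over the 9 arrays were sought among 11608 other genes. Il4 was followed by Trmt2a (Pearson r = 0.97), Rims4 (0.97) and Pknox1 (0.96), Il4ra by Mcfd2 (0.99), Ap2b1 (0.93) and Msln (0.93), Stat6 by Caprin1 (0.94), Map4k1 (0.93) and Zc3h13 (0.93), and Irs2 by Lncppara, Airn and Tprkb (each 0.96). With 9 arrays and so many candidates, correlations of this size are found for every member, from 0.90 up.

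Genes that STAT6 is known to switch on changed with IL-4. The 28 genes listed as known STAT6 targets included 21 that were tested, and 14 of these rose with IL-4 while 0 fell, where 5.6% of all tested probe sets rose. With IL-4d2, 0 of the 21 rose and 1, Mgl2, fell, where 0.928% and 0.39% of all tested probe sets rose and fell. Between the viruses, 12 of the 21 were higher with IL-4 than with IL-4d2, where 0.911% of all were. The median log2 difference of the 21 was 1.03 with IL-4, -0.14 with IL-4d2 and 1.07 between the viruses. The direction of this list is thus no independent evidence. The signals of 3 of the 14 (Arg1, Pdcd1lg2 and Tfec) were under the array median in each of the 3 control mice, and Arg1 and Pdcd1lg2 were tested through their IL-4 arrays alone; a gene tested through 1 group alone had to differ. Of the 18 targets that exceeded the median in at least 1 control mouse, 11 rose with IL-4, and of the 18 that exceeded it in at least 1 IL-4d2 mouse, 10 were higher with IL-4 than with IL-4d2.

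Arg1, the arginase of alternatively activated macrophages, had signals of 1351, 918 and 717 in the IL-4 mice, 101, 78.1 and 28.3 in the IL-4d2 mice and 107, 94.2 and 69.0 in control mice. The IL-4 mice stood apart from all others, and the IL-4d2 and control ranges overlapped. Arg1 was 12.4-fold higher with IL-4 than with IL-4d2 (log2 difference 3.63 ± 0.34, limma adjusted p = 0.000437). Its 6 signals outside the IL-4 group lay below the array medians, although above the trpn signals of their own arrays, so this fold rests on dim signals. Arg1 entered the test through the IL-4 arrays alone and so had to differ, and its adjusted p is no support for a difference. With IL-4d2 against control its log2 difference was -0.41 ± 0.34.

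Slc26a4, which encodes pendrin, an anion exchanger of airway cells that make mucus, read 4289, 3071 and 2957 in the IL-4 mice, 388, 323 and 265 in the IL-4d2 mice and 61.8, 403 and 127 in control mice. It was 20.4-fold higher with IL-4 than with control virus (log2 difference 4.35 ± 0.44, adjusted p = 0.000140), or 5.01 on the log2 scale without control mouse 2, and 10.1-fold higher with IL-4 than with IL-4d2 (3.33 ± 0.44). Itln1, a secreted lectin of goblet cells, read 2342, 133 and 813 in the IL-4 mice, 123, 63.4 and 91.4 in the IL-4d2 mice and 16.4, 184 and 2.70 in control mice. The groups of Itln1 overlapped, and its log2 difference of 3.74 ± 0.93 with IL-4 (adjusted p = 0.0242) lost its call without IL-4 mouse 1, IL-4 mouse 3, control mouse 1 or control mouse 3, being 2.83 without the first of these, and was 4.82 without IL-4 mouse 2. Control mouse 1 and control mouse 3 lay below the brightest trpn signal of their own arrays, so no fold is given for Itln1. Chil4, a chitinase-like protein, read 20941, 3672 and 5574 in the IL-4 mice, 145, 606 and 289 in the IL-4d2 mice and 697, 1816 and 270 in control mice. The IL-4 values of Chil4 spread widely, and its log2 difference of 4.60 ± 0.71 between the viruses was 3.86 without IL-4 mouse 1.

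Tfec, a transcription factor of macrophages, read 477, 421 and 397 in the IL-4 mice, 151, 210 and 266 in the IL-4d2 mice and 105, 154 and 116 in control mice. It was 3.20-fold higher with IL-4 than with control virus (log2 difference 1.68 ± 0.22, limma adjusted p = 0.000731). The control signals of Tfec lay below the array medians, so it was tested through the cytokine virus arrays. That adjusted p is thus no support for a difference. The chemokine gene Ccl17, whose product draws in Th2 cells, read 1488, 1580 and 1748 in the IL-4 mice, 593, 492 and 383 in the IL-4d2 mice and 487, 901 and 384 in control mice, and its difference between the viruses was 1.70 ± 0.25 (adjusted p = 0.00521). Chil3, the chitinase-like protein Ym1, read 40195, 39749 and 35107 in the IL-4 mice, 10814, 18513 and 16529 in the IL-4d2 mice and 12498, 21651 and 10845 in control mice, 2.67-fold higher with IL-4 than with control virus (adjusted p = 0.00314). For each of these, the IL-4 mice stood above the other 6.

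Mgl2, a lectin of alternatively activated macrophages and dendritic cells, separated all 3 groups. It read 553, 657 and 686 in the IL-4 mice, 289, 282 and 304 in the IL-4d2 mice and 452, 444 and 413 in control mice. It rose with IL-4 (by 0.51 ± 0.12 on the log2 scale, limma adjusted p = 0.0185; its sign turns under poly-A scaling, and the call was lost without IL-4 mouse 2, IL-4 mouse 3 or control mouse 3) and fell by 0.56 ± 0.12 with IL-4d2 (adjusted p = 0.0460), although that second call was lost in 8 of the 9 fits without 1 array. The difference of Mgl2 between the viruses was 1.07 ± 0.12 (adjusted p = 0.00144).

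**Figure D3:**
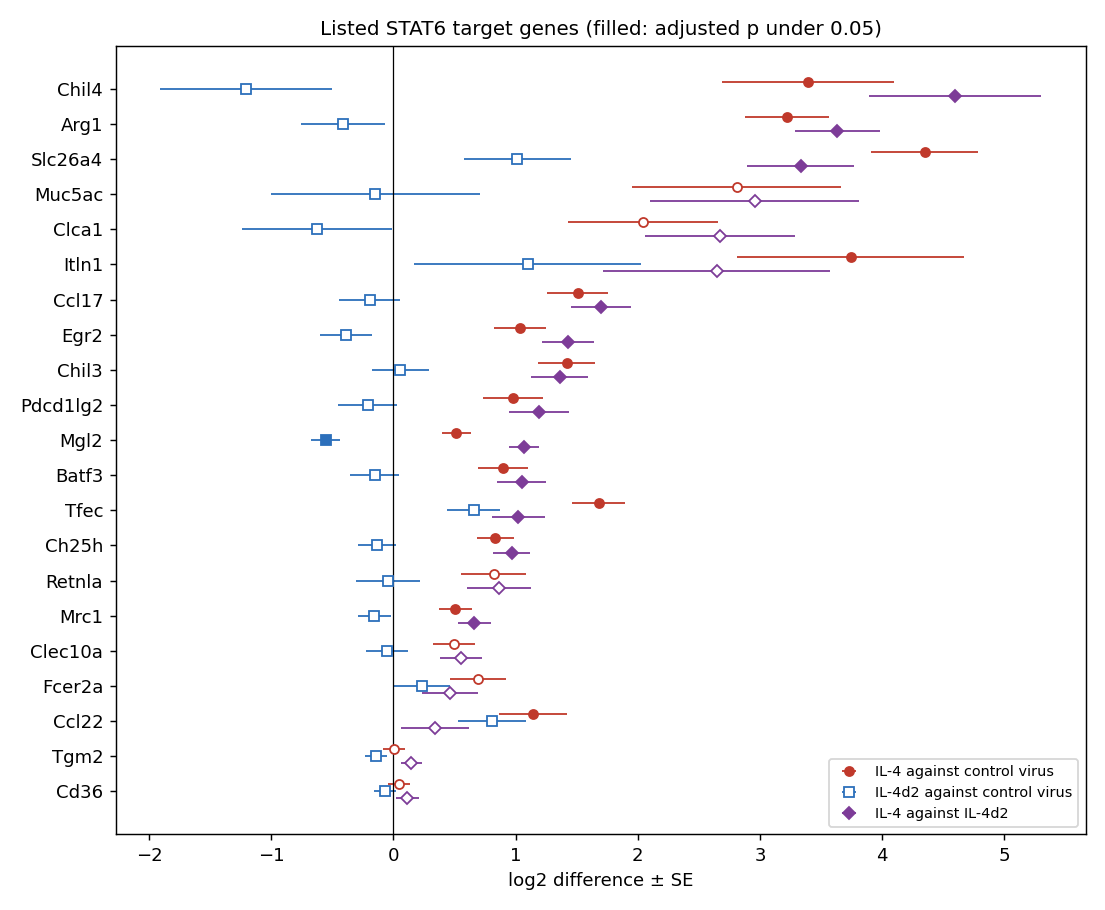
Log2 difference ± standard error of the 21 tested genes listed as STAT6 targets for each cytokine virus against the control virus and for IL-4 against IL-4d2, filled where the limma adjusted p was under 0.05. The IL-4 differences lie at or to the right of 0 for all 21, whereas those of IL-4d2 lie on both sides of it. Under poly-A scaling the signs of 2 of the 14 genes called with IL-4 (Mrc1 and Mgl2) and of 2 of the 12 called between the viruses (Mrc1 and Ch25h) turn.

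Counted per mouse, 19, 21 and 20 of the 21 targets lay above their control mean in the IL-4 mice, 10, 8 and 7 in the IL-4d2 mice and 6, 19 and 2 in the control mice. The IL-4 mice had median target levels 1.14, 0.94 and 1.12 above the control mean on the log2 scale, and control mouse 2 had one 0.37 above it. Its Il4 signal of 15.8 was the lowest of the 9. The count of 14 targets that rose with IL-4 was 19 without control mouse 2 and 9 without control mouse 1, control mouse 3 or IL-4 mouse 3. The count of 12 between the viruses was 6 without IL-4d2 mouse 3, 7 without IL-4d2 mouse 1 and 8 without IL-4 mouse 1.

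**Figure D4:**
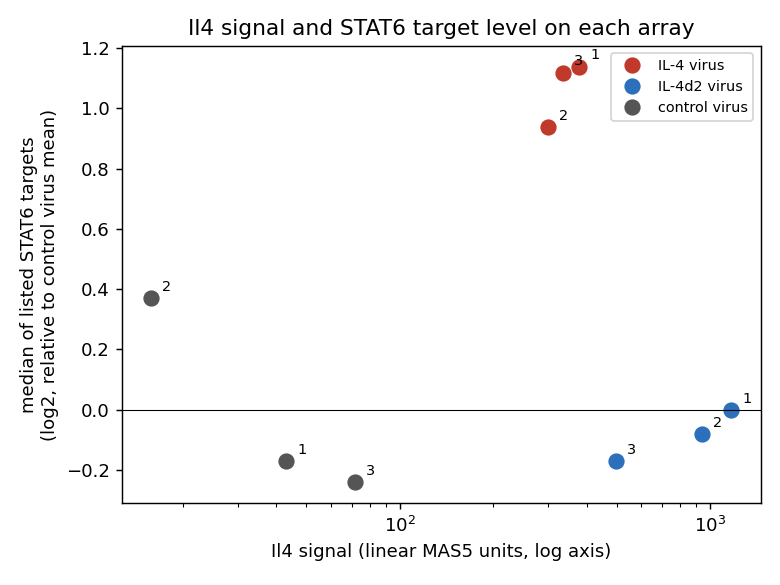
Il4 signal of each mouse (horizontal, log axis) and the median over the 21 tested STAT6 target genes of the log2 difference from the control virus mean (vertical), with mouse numbers beside the points. The 3 IL-4d2 mice have the highest Il4 signals and medians from -0.17 to -0.00286, whereas the 3 IL-4 mice have intermediate Il4 signals and medians from 0.94 to 1.14.

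The macrophage markers moved beside these targets. Their summed signals ran from 50499 to 56330 in the IL-4 mice, from 42420 to 49032 in the IL-4d2 mice and from 38970 to 52472 in control mice, so that IL-4 and control overlapped, and with IL-4 the markers Itgax, Cd68, Adgre1 and Mrc1 rose and Marco fell by the limma call, 5 of the 7. Mrc1 is itself also a listed STAT6 target. Between the viruses the summed macrophage signals did not overlap, being higher with IL-4, and 3 of the 7 markers were called by limma. The mean log2 signal of the macrophage markers did overlap, at 10.93 to 11.23 with IL-4 and 10.71 to 11.06 with IL-4d2. The part of macrophages in the target signals was not tested. Of the 5 eosinophil markers, 4 were too dim to test, as were 5 of the 6 markers of mast cells and basophils.

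STAT6 dimers are known to bind palindromes of the form TTC, a gap of 3 or 4 bases, and GAA. Both spacings, TTCNNNGAA and TTCNNNNGAA, were looked for in the 250 bases upstream of the RefSeq start sites (GRCm38.p6). Each pattern reads the same on both strands. At least 1 of them is present in 12.4% of the 32851 promoter windows of all genes, 7.02% holding the shorter and 5.85% the longer. Among the 10 pathway genes, 1 of 11 windows held a match, that of Il4, whereas 6 of the 15 windows of targets called higher with IL-4 than with IL-4d2 did, and 2 of the 7 windows of targets tested and not called between the viruses. Some genes hold several windows, such as Egr2, whose windows partly overlap, and Arg1 holds none. By gene, 6 of the 11 targets called between the viruses that have a window held a match. Of the tested targets not called, 2 of the 5 with a window did. These are counts of letters in few windows, with no test, and neither a match nor its absence shows whether STAT6 binds. The Il4 window is shown as the only pathway match. The 4 target windows shown were taken from the 6 that hold a match, so they do not stand for the 15 windows of targets that differed between the viruses. All run 5′ to 3′ along the strand of the gene and end 1 base before the start site, and capitals mark the match.
Il4 chr11:53618666-53618915 minus strand: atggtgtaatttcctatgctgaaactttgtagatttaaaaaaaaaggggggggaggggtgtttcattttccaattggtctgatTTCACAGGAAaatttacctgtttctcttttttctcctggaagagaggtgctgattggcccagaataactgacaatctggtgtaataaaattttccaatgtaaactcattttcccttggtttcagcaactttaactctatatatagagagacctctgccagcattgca
Chil3 chr3:106167565-106167814 minus strand: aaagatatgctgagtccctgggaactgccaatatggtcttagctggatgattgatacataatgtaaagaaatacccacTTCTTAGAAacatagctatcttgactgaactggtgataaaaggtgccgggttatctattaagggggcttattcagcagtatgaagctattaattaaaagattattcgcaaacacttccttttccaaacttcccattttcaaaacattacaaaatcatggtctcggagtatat
Ccl17 chr8:94810203-94810452 plus strand: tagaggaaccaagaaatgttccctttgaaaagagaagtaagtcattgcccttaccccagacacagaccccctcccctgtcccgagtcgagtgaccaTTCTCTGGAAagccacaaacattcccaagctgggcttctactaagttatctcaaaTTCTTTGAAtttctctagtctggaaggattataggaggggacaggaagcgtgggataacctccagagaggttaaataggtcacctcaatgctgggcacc
Pdcd1lg2 chr19:29410669-29410918 plus strand: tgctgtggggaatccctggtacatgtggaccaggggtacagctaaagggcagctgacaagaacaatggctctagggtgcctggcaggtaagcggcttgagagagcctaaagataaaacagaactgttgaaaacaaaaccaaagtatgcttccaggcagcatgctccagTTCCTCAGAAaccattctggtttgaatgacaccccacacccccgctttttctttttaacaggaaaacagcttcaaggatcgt
Tfec chr6:16898442-16898691 minus strand: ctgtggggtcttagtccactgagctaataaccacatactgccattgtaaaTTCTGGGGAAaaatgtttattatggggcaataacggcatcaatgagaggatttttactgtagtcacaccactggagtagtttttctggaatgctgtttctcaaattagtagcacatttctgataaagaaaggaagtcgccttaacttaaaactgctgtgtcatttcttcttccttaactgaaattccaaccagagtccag

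The match upstream of Il4, TTCACAGGAA, begins 167 bases before the start site. That of Chil3, TTCTTAGAA, begins 172 bases before it, and its neighbour and paralog Chil4 holds the same letters 200 bases before its own, so these count as related sequences. Ccl17 holds both spacings, TTCTCTGGAA at 154 and TTCTTTGAA at 99 bases. Pdcd1lg2, the inhibitory ligand PD-L2 on myeloid cells, was 2.28-fold higher with IL-4 than with IL-4d2 (log2 difference 1.19 ± 0.24, limma adjusted p = 0.0324, a call lost without IL-4 mouse 1, IL-4 mouse 3 or any 1 IL-4d2 mouse, at 1.04 to 1.30) and holds TTCCTCAGAA at 82 bases. Pdcd1lg2 was under the array median in each IL-4d2 and control mouse and was tested through the IL-4 arrays alone. It so had to differ, and its adjusted p is no support for a difference. Tfec holds TTCTGGGGAA at 200 bases, and its difference between the viruses of 1.02 ± 0.22 (adjusted p = 0.0374) lost its call without any 1 IL-4 or IL-4d2 mouse, its value falling as low as 0.82 without IL-4d2 mouse 1.

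Related receptor chains were higher with IL-4 in part. Of 10 listed chains 7 were tested, and 4 rose with IL-4 (5.6% of all tested probe sets did), 0 with IL-4d2 (0.928% of all did; 5 at an unadjusted p under 0.05, and 3 called without control mouse 2) and 0 between the viruses (1 at an unadjusted p under 0.05, and 1 called without control mouse 1 or control mouse 2). Il21r, the receptor of IL-21 that also pairs with the common gamma chain, read 248, 236 and 236 in the IL-4 mice, 193, 102 and 201 in the IL-4d2 mice and 86.4, 49.1 and 67.8 in control mice. With each control array given the brighter of Il21r and trpn, the fold with IL-4 over control virus was at least 3.01 (log2 difference 1.64 ± 0.28, limma adjusted p = 0.00407), and with IL-4d2 its difference of 1.09 ± 0.28 did not pass the test (adjusted p = 0.0905) although the groups did not overlap. The control signals of Il21r lay below the array medians, so it was tested through the cytokine virus arrays. Its adjusted p-values against control virus are thus no support for a difference.

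Il7r, the receptor chain of IL-7, read 1249, 1276 and 1316 in the IL-4 mice, 847, 788 and 773 in the IL-4d2 mice and 463, 837 and 572 in control mice, and rose 2.09-fold with IL-4 (adjusted p = 0.00229). Il2rb, a chain of the IL-2 and IL-15 receptors, rose 2.20-fold (adjusted p = 0.0138), a call lost without control mouse 1. Csf2rb, the shared chain of the GM-CSF, IL-3 and IL-5 receptors, rose 1.49-fold on its brighter probe set (adjusted p = 0.0143; its sign turns under poly-A scaling) and missed the threshold on the other (log2 difference 0.88 ± 0.27, adjusted p = 0.0579). The count of 4 was 2 without control mouse 1. The B cell marker sums, with 4 of 5 tested markers called with IL-4, and the T cell marker sums, with 0 of 4 called, were higher on all 6 cytokine virus arrays than on all 3 control arrays, and their part in the receptor signals was not tested.

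Of the other JAKs and STATs, 0 of 5 tested genes were called by limma in any comparison, while 2, 0 and 2 had an unadjusted p under 0.05. Leaving out control mouse 2 gave 1 call with IL-4. Jak2 had a log2 difference of 0.30 ± 0.09 with IL-4 (adjusted p = 0.0607) and Stat3 one of -0.11 ± 0.08 (adjusted p = 0.420). The gamma-chain and type 2 cytokines other than Il4 were mostly dim, with 2 of 7 tested. Neither Il15 (log2 difference -0.35 ± 0.25 with IL-4) nor Il7 (0.15 ± 0.22) passed the test in any of the 3 comparisons.

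Downstream of the receptor, 18 adaptor and kinase genes were tested, of which 4 rose (5.6% of all tested probe sets did) and 1 fell with IL-4, and 0 were called with IL-4d2 or between the viruses (2 and 5 at an unadjusted p under 0.05). The gene that fell, where 5.08% of all tested probe sets fell, was Irs1, the relative of Irs2. Irs1 read 656, 835 and 890 in the IL-4 mice, 1084, 1039 and 947 in the IL-4d2 mice and 1141, 1062 and 1222 in control mice, a fall by 0.53 ± 0.12 on the log2 scale (limma adjusted p = 0.0173). Irs1 and Irs2 both had all 3 IL-4 values below those of the other groups, although only Irs1 passed the test, and that call was lost without control mouse 1 or control mouse 3. Heart muscle markers also were lower with IL-4 than with control virus, as was the mean log2 signal of the fibroblast markers, though not their sum. The part of muscle and fibroblasts in the Irs1 and Irs2 signals was not tested.

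Foxo3, a transcription factor that the PI3 kinase route restrains, rose 1.42-fold (adjusted p = 0.00420), Pik3cd, the delta catalytic chain of PI3 kinase, rose 1.41-fold (adjusted p = 0.0309, lost without IL-4 mouse 1, IL-4 mouse 2, control mouse 1 or control mouse 2), and Grb2 and Sos1, which lead to RAS, rose by 0.43 and 0.41 on the log2 scale. All 4 of these directions turn under poly-A scaling, and those of Grb2 and Sos1 under hybridisation control scaling too. On its other tested probe set Pik3cd missed the threshold (log2 difference 0.45 ± 0.14 with IL-4, limma adjusted p = 0.0526). The number of calls, 5 here, became 1 without control mouse 1, and 3 on leaving out IL-4 mouse 1, IL-4 mouse 2, control mouse 2 or control mouse 3.

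The inhibitors of the route rose in part with IL-4, with 5 of the 15 tested called higher and 0 lower, where 5.6% and 5.08% of all tested probe sets were. With IL-4d2 0 were called by limma (5 at an unadjusted p under 0.05, and 1 called without control mouse 2), and between the viruses Cish was called. Cish, an inducible inhibitor of cytokine receptors of the SOCS family, read 2124, 2421 and 2217 in the IL-4 mice, 1207, 971 and 1399 in the IL-4d2 mice and 1279, 1597 and 1599 in control mice. All 3 IL-4 mice lay above the other 6, with log2 differences of 0.60 ± 0.13 against control (limma adjusted p = 0.0156) and 0.92 ± 0.13 against IL-4d2 (adjusted p = 0.00521), both of which turn sign under poly-A scaling. The first of these calls was lost without control mouse 1.

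Inpp5d, the lipid phosphatase SHIP1 of blood cells, rose 1.74-fold with IL-4 (adjusted p = 0.00419), though its other probe set did not pass the test (log2 difference 0.43 ± 0.23, adjusted p = 0.265). Ptpn6, the phosphatase SHP1, rose by 0.59 on the log2 scale (adjusted p = 0.0231, lost without IL-4 mouse 1, IL-4 mouse 3, control mouse 1 or control mouse 3), with Ptpn2 and Ptprc also called. The signs of Ptpn6, Ptpn2 and Ptprc turn under poly-A scaling. On its other tested probe set Ptpn6 did not pass the test (log2 difference 0.40 ± 0.17, limma adjusted p = 0.154). The count of 5 was 2 without control mouse 1 and 3 without control mouse 3 or IL-4 mouse 3. The B cell and T cell marker sums were higher in the IL-4 mice as well, and their part in these signals was not tested.

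Of the STAT6 cofactors, 2 of 8 tested genes rose with IL-4 (5.6% of all tested probe sets did) and 0 were called with IL-4d2 or between the viruses (2 and 1 at an unadjusted p under 0.05, and 1 called with IL-4d2 without control mouse 1 or control mouse 2). Irf4, a partner of STAT6 in lymphocytes and macrophages, read 302, 354 and 309 in the IL-4 mice, 162, 298 and 185 in the IL-4d2 mice and 104, 75.7 and 16.9 in control mice. Its 3 control signals lay below the array medians, and it was tested through the cytokine virus arrays. The adjusted p-values of Irf4 against control virus are thus no support for a difference. The control signals were above trpn on their own arrays, and Irf4 was 4.74-fold higher with IL-4 than with control virus (log2 difference 2.24 ± 0.40, limma adjusted p = 0.00499), and its difference of 1.66 ± 0.40 with IL-4d2 missed the threshold (adjusted p = 0.0708) with no overlap of the groups. The B cell and T cell marker sums likewise were higher on all 6 cytokine virus arrays than on the control arrays, and their part in the Irf4 signal was not tested. Parp14, a coactivator of STAT6, rose by 0.56 ± 0.11 (adjusted p = 0.00972; the sign turns under poly-A scaling), whereas its second probe set gave 0.44 ± 0.17 (adjusted p = 0.127).

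Over the 7 lists, 76 genes other than the pathway members were tested, of which 29 rose and 1 fell with IL-4, 0 rose and 1 fell with IL-4d2, and 13 were higher and 0 lower with IL-4 than with IL-4d2. The called share was 39.5%, 1.32% and 17.1% in the 3 comparisons, beside 10.7%, 1.32% and 1.75% of all tested probe sets. These shares are of unlike units, since a listed gene counts through its brightest probe set and the second share counts every tested probe set. Of the 13 called between the viruses, 12 are on the STAT6 target list and 1, Cish, is on the inhibitor list. All lists were chosen with earlier results of these arrays known. Arg1 and Pdcd1lg2 are counted with IL-4 and between the viruses, although they were tested through the IL-4 arrays alone and had to differ. The 30 called with IL-4 became 16 without control mouse 1. The 1 called with IL-4d2 became 7 without control mouse 2, and 0 on leaving out IL-4 mouse 2, IL-4 mouse 3, IL-4d2 mouse 1, IL-4d2 mouse 3 or control mouse 3. The 13 called between the viruses became 7 without IL-4d2 mouse 3 and 8 without IL-4d2 mouse 1.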

How the data were processed

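The authors deposited 1 table of signal intensities, 1 value per probe set and array on a linear scale, made per the submitters' processing notes by the MAS5 method, with Expression Console 2.0 of Affymetrix and GCOS as software, with no genome build given in the sources used here. Per the labels' protocols, RNA was extracted with Trizol, and labelled cRNA was made from 200 ng with an oligo-dT primer, so probes near the 3′ end are favoured. Genes were named from the platform annotation, which gives 34958 probe sets 1 symbol, 932 several and leaves 9211 unnamed here.

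From the deposited intensities, log2(signal + 16) was taken, 64 control probe sets were left out, and 1 linear model over all 9 arrays without covariates was fitted with limma 3.58.1 in R 4.3.3 (lmFit, eBayes with trend, 6 residual degrees of freedom, two-sided). P-values were adjusted by Benjamini-Hochberg within each contrast over the 23824 tested probe sets. The script was tested on simulated data with known changes. Errors after differences are standard errors of the fit. A listed gene outside the pathway is represented by its probe set of highest mean log2 signal, whereas the shares of all tested probe sets count every one, dim ones included. Where a list had called genes, up to 3 with the largest difference were named, otherwise the 2 brightest, and the text adds other called genes (such as Ccl17, Chil3 and Tfec) chosen after their values were seen. Arrays have no read depth, so their number limits the precision.

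The pathway members and the gene lists were chosen with earlier results of these data known. The mouse numbers do not pair the arrays: deviations of same-numbered arrays correlated at -0.069 to 0.116, over 0.1 in 2 of 9 pairs. Alternatives were pseudocounts of 1 and 64, no filter and a stricter one, quantile normalization, scaling to hybridisation or poly-A controls, no trend, 2 groups only, a threshold of 0.1, a replicate block and leaving out arrays. STAT6-type palindromes were sought in RefSeq promoter windows of GRCm38.p6.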

Additional observations from a re-analysis of the deposited data

Results flagged for a closer look

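The comparison of IL-4 with IL-4d2 mice tests the difference between these 2 virus groups, which also differ in Il4 transcript signal and for which the amount of protein made is not known. Of the listed genes, chosen with earlier results known, 13 passed it, of which Arg1 and Pdcd1lg2 were tested through the IL-4 arrays alone and had to differ. The log2 differences, IL-4 minus IL-4d2, were 4.60 for Chil4, 3.63 for Arg1, 3.33 for Slc26a4, 1.70 for Ccl17, 1.42 for Egr2, 1.36 for Chil3, 1.19 for Pdcd1lg2, 1.07 for Mgl2, 1.05 for Batf3, 1.02 for Tfec, 0.97 for Ch25h, 0.92 for the inhibitor Cish and 0.66 for Mrc1. All 13 were positive, and 12 are listed as STAT6 targets. None of the pathway members is among them. Groups of 3 mice are too small to screen single arrays for outliers. With 1 array left out, the calls of Tfec, Pdcd1lg2, Batf3 and Mrc1 were lost in 6, 5, 5 and 5 of 9 fits, that of Chil3 without IL-4d2 mouse 1 (1.13) or IL-4d2 mouse 3 (1.43) and that of Ch25h without IL-4d2 mouse 3 (0.94).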

How the results depend on the processing

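Il4 was called higher with IL-4 and with IL-4d2 in every setting in which it was tested, and its differences ran from 2.29 to 3.02 and from 3.54 to 4.28 with 1 array left out. The stricter filter removed it, leaving 0 member probe sets called in both comparisons. Its difference between the viruses ran from -1.60 to -0.996 with 1 array left out and passed the test with a pseudocount of 64 (-1.15), in 2 groups only (-1.25), and under hybridisation (-1.73) and poly-A (-2.27) control scaling, so that 1 member was called in the first 2 of these. At a threshold of 0.1 the IL-4 comparison called 2 members.

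With 1 array left out, 1313 to 2210 probe sets were called with IL-4, 156 to 417 with IL-4d2 and 110 to 446 between the viruses, and the listed genes called numbered 16 to 35, 0 to 7 and 7 to 17, with 1, 1 and 0 to 1 members. Leaving out the pair of arrays with deviating muscle markers, control mouse 1 together with IL-4 mouse 2, 1068, 200 and 237 probe sets and 17, 0 and 10 listed genes were called. Without the variance trend the last 2 comparisons called 195 and 165 probe sets. Between the viruses no filter called 244 probe sets and the stricter filter 8 listed genes. The 1 listed gene called with IL-4d2 was lost (0) with a pseudocount of 64, no filter, quantile normalization, no trend and 2 groups only. The replicate block gave 2427, 312 and 384 probe sets and 31, 0 and 13 listed genes, and left the member calls at 1, 1 and 0. The mouse numbers do not pair the arrays. The causes of these shifts in counts were not tested.

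Control scaling shifts nearly all probe sets one way, by construction. Hybridisation control scaling called 7010 probe sets with IL-4 (293 higher, 6717 lower) and 8461 between the viruses (91 higher, 8370 lower), with 3 and 5 members, 24 listed genes between the viruses and 3 with IL-4d2. Poly-A control scaling called 18101 (158 higher, 17943 lower), 541 (485 higher, 56 lower) and 22440 (34 higher, 22406 lower), with 12 and 14 members in the IL-4 comparisons and 7 and 61 listed genes in the comparisons of and with IL-4d2. Under it the IL-4 differences turned to -0.61 for Il4ra 1421034_a_at, -0.68 and -0.65 for Il13ra1 1427164_at and 1451775_s_at, -0.66 for Stat6 1426353_at, -0.71 and -0.77 for Jak1 1433803_at and 1433805_at and -0.74 for Tyk2 1417306_at, and to -0.19 for Cish, -0.27 for Foxo3, -0.25 for Mgl2, -0.28 for Mrc1, -0.22 for Parp14, -0.29 for Pik3cd and -0.19 for Ptpn6. Between the viruses they turned to -0.92, -0.84, -0.92 and -0.84 for Il13ra1 1454783_at, 1427165_at, 1427164_at and 1451775_s_at, -1.02 for Stat6 1421708_a_at, -0.95 and -0.998 for Jak1 1433803_at and 1433805_at, -0.79 for Jak3, -0.91 for Tyk2 1417306_at, -0.076 for Ch25h, -0.13 for Cish and -0.39 for Mrc1. The signs of further differences also turned, such as that of Stat6 1421708_a_at with IL-4 (to -0.40). Irs2 kept its sign and was called under hybridisation and poly-A control scaling. It was at -0.88 and -1.19 with IL-4 against control, and at -0.98 and -1.50 between the viruses. With 3 mice a group, dim probe sets such as Il13ra2 and Tyk2 1432576_at could not show small changes.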

Other observations

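Egr2, a transcription factor induced by IL-4 in macrophages, had a second tested probe set that was called lower with IL-4d2 than with control virus. On it the log2 signal fell by 1.44 ± 0.30 with IL-4d2 (limma adjusted p = 0.0379) and was 0.76 ± 0.30 with IL-4 (adjusted p = 0.130), and the difference between the viruses was 2.20 ± 0.30 (adjusted p = 0.00394). The brighter probe set of Egr2 read 712, 661 and 751 in the IL-4 mice, 267, 261 and 233 in the IL-4d2 mice and 229, 499 and 333 in control mice, with a difference of -0.39 ± 0.21 for IL-4d2 against control (adjusted p = 0.437). Pik3r1, the regulatory chain of PI3 kinase, had 1 probe set that fell by 0.48 ± 0.11 on the log2 scale with IL-4 (limma adjusted p = 0.0159), while its brightest (0.03 ± 0.10) and its others (-0.50 ± 0.17 and 0.06 ± 0.30) did not pass the test. Both genes were chosen after their values were seen.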
